A study of Mus musculus with 4 samples.

Results

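Interferon-induced genes were followed in splenic regulatory T cells that had been separated by Nrp1 (neuropilin-1), a surface receptor. The set holds every gene of the array whose symbol begins with Ifi, Ifit, Oas, Mx1, Mx2, Gbp, Irgm, Iigp, Isg, Rsad2, Usp18, Bst2, Rtp4 or Zbp1, or with Irf and a digit, without Irf4, and that has a probe set (the array's group of probes for a transcript) listed with that gene alone. It has 64 genes of the 18193 with such a probe set. Of these, 18 have several such probe sets, and each gene was represented by its brightest. A filter at percentile 50 of the mean level left 10200 genes to test, and 55 of the 64 passed it. The other 9 were Ifi207, Ifitm5, Ifitm7, Ifitm10, Mx2, Oas1e, Oas1f, Oas1h and Oasl2. Their intensities ran from 2.14 to 149, and they were not tested. Isg15, a ubiquitin-like protein, shares its probe set with another gene in the annotation and so has no value here.

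All 4 arrays hold CD4+ Foxp3+ cells sorted from the spleen of Balb/c Foxp3 GFP mice, in which green fluorescence reports Foxp3, the master regulator of regulatory T cells. The Nrp1-negative and the Nrp1-positive group have 2 arrays each, numbered 1 and 2, with no treatment named. The mice were 4 to 6 weeks old, except on the array titled Nrp1-negative 1, where the age is 4 to 8 weeks and where the source name and the cell type read as Nrp1-positive. On that array Nrp1 itself had an intensity of 339, against 1223 on Nrp1-negative 2, 9344 on Nrp1-positive 1 and 7745 on Nrp1-positive 2. Groups follow the titles, the labels that tell the samples apart. Nothing in the labels says that arrays came from separate mice or sorts, and p-values measure only the spread between these arrays, which may be technical. With 2 arrays in a group, precision is low throughout.

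The 2 arrays of each number resembled each other more than the 2 arrays of each group in several respects. The deposited trimmed mean was 500.003 on both number 1 arrays and 150.001 on both number 2 arrays, and it was brought to 500 on all 4. The ratio of the 3′ to the 5′ control probe set of Gapdh, a measure of RNA and labelling quality, was 1.54 and 1.74 on the number 1 arrays and 0.711 and 0.763 on the number 2 arrays. Of 12 tested markers of myeloid and conventional dendritic cells, 11 were higher on the number 2 arrays, where 9.83% of all genes were. Of the 11, Cd14, Itgax and Itgam had a mean level below the filter threshold on the number 1 arrays. They passed the filter only through the number 2 arrays, so they are no support for a difference. T cell transcripts were present on all arrays (Cd3d at 20377 to 23975), but not all were level. Cd4 (log2 difference -1.57) and Cd3e (-0.51) were lower on the number 2 arrays, and Ctla4 (0.55) was higher. The Foxp3 probe set lay below the filter, with intensities of 2.16 to 36.4. In sorted bulk cells, fewer cells of a type and less RNA per cell cannot be told apart.

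Interferons are secreted cytokines that signal through Janus kinases and STAT proteins. Type I interferons activate a complex that holds IRF9 and binds interferon-stimulated response elements (ISREs), and interferon-gamma acts through gamma-activated sites (GAS). The induced genes encode regulators (IRF proteins), sensors of foreign nucleic acid, and effectors that degrade viral RNA, hold virions at the membrane or attack vacuoles of pathogens. Lymphocytes at rest also hold a basal level of many of these transcripts.

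The members share promoter elements that the choice by symbol did not use. Promoters of 49 of the 64 genes are in the RefSeq table (GRCm38.p6), each spanning 250 bases before to 50 bases after a start site. The ISRE core GAAANNGAAA, read on both strands, was in the promoters of 22 of these 49 genes (44.9%), against 3.99% of all 27025 genes in the table. The GAS letters TTCNNNGAA were in 14 (28.6%), against 9.55% of all genes. The motifs overlapped each other in 2 members. Stretches of 6 genes are shown because the arrays gave their genes different patterns although all carry the core, whose letters are in capitals; each runs 5′ to 3′ on the gene's own strand, lies before the annotated start site and belongs to the genes whose values follow.
Bst2, chr8:71537562-71537627, minus strand, lower on the number 2 arrays: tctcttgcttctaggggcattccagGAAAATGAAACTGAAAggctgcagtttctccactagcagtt
Gbp3, chr3:142559974-142560039, plus strand, lower on the number 2 arrays: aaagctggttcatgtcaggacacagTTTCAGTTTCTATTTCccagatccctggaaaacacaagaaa
Ifitm2, chr7:140955973-140956032, minus strand, higher on the number 2 arrays: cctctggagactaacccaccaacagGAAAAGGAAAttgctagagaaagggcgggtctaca
Rsad2, chr12:26456538-26456597, minus strand, higher on the number 2 arrays only with the Nrp1 group as a term: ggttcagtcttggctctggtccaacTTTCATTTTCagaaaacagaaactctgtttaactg
Ifit1, chr19:34640760-34640838, plus strand, not called: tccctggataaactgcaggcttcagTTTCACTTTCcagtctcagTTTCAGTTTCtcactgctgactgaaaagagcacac
Ifit1bl1, chr19:34602038-34602097, minus strand, largest difference towards Nrp1-negative cells: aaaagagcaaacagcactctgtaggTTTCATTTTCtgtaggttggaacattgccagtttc
The Ifit1 stretch is also the promoter of its divergent neighbour Ifit1bl2, on the opposite strand. The element begins 130 bases before the start site in Bst2, 45 in Gbp3, 46 in Ifitm2, 120 in Rsad2, and 104 in both Ifit1 and Ifit1bl1. A match is a description of letters and shows no binding.

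The first question, which the study's design poses, is whether Nrp1-positive and Nrp1-negative regulatory T cells differ in these genes. None of the 55 tested members passed the test between the Nrp1 groups, and neither did any other gene (0% called). Nrp1 itself, with a log2 difference of 3.68, was not called by this test (limma adjusted p = 1.00), so the absence of calls says nothing about the members. Log2 differences, Nrp1-positive minus Nrp1-negative, ran from -0.65 for Ifit1bl1 to 0.72 for Ifi202b. Their median was -0.03, against 0.00 for all genes tested, and the median size was 0.13, against 0.12. No member differed by 2-fold or more, where 0.951% of all genes did, and 4 members (7.27%) differed by at least 0.5, where 6.99% of all genes did.

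The test was limma with a Benjamini-Hochberg adjusted p below 0.05 and no block; 147 genes, 1 of them a member (Ifit1bl1), had an unadjusted p under 0.05. With the replicate number as a block, Nrp1 was called (limma adjusted p = 0.00615), as was Ikzf2 (Helios; limma adjusted p = 0.0329). In that fit 0.284% of all genes were called higher and 0.167% lower, and no member, although 878 genes and 9 members had an unadjusted p under 0.05. The block with quantile normalisation called 1 member, Ifit1bl1, which was lower. That fit called 103 of all 10200 genes higher and 62 lower. Without the array whose labels conflict, again no member was called and the median was -0.06.

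The IFIT proteins include IFIT1, which binds viral RNA that lacks the host's cap methylation. Of the 5 tested, none passed, 4 had a difference below 0 in both replicate numbers and Ifit3 one above 0 in both (0.28 and 0.16). Ifit1bl1, a relative of Ifit1, had an intensity of 1544 and 1131 on the Nrp1-negative arrays of number 1 and number 2, against 835 and 840 on the Nrp1-positive ones. The groups did not overlap. The log2 difference was -0.65 (SE 0.22), with -0.87 within number 1 and -0.42 within number 2. The limma adjusted p was 0.132 with the replicate block, and 0.0231 with the block and quantile normalisation together, where the difference was -0.66. Ifit2 had an intensity of 1413 and 1374 in Nrp1-negative cells, against 1007 and 1199 in Nrp1-positive cells, a log2 difference of -0.34 (SE 0.18), and its groups did not overlap either. Ifit1 differed by -0.05 within number 1 and -0.01 within number 2, and Ifit1bl2 by -0.15 and -0.29.

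PYHIN proteins bind DNA, and they split in direction. Ifi204 had an intensity of 129 and 108 in Nrp1-negative cells, against 70.3 and 77.1 in Nrp1-positive cells, and the difference was -0.73 within number 1 and -0.40 within number 2. Ifi203 went the other way, with 0.31 and 0.45. Ifi213, which is named because its values were seen to lie apart, had -0.82 and 0.41. Ifi202b had the largest mean difference of the members towards Nrp1-positive cells, 0.72 (SE 0.98), but it was 1.61 within number 1 and -0.18 within number 2. Its intensity was 8.66 on Nrp1-negative 1, 64.3 on Nrp1-positive 1, and 166 and 144 on the number 2 arrays, so the mean rests on 1 dim array.

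Among the interferon regulatory factors, Irf5, which acts downstream of Toll-like receptors, had the largest difference towards Nrp1-positive cells. Its intensity was 194 and 275 in Nrp1-negative cells, against 465 and 318 in Nrp1-positive cells. The groups did not overlap, and the difference was 1.19 within number 1 and 0.20 within number 2, with a limma adjusted p of 0.466 with the replicate block. Its other probe set gave 0.74 and 1.03. Irf7, which amplifies the type I interferon response, differed by 0.02 and 0.25. Irf9, the DNA-binding part of the type I complex, differed by 0.02 and -0.06, and Irf1, induced by interferon-gamma, by 0.15 and 0.01. The IRF2-binding protein Irf2bp2, a corepressor, was higher in Nrp1-positive cells in both numbers by all 4 of its probe sets, with 0.44 and 0.27 for the brightest (limma adjusted p = 0.281 with the replicate block).

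Oligoadenylate synthetases make the second messenger that activates RNase L. Oas1a was higher in Nrp1-positive cells without overlap, at 461 and 655 in Nrp1-negative cells against 772 and 703, with differences of 0.72 within number 1 and 0.10 within number 2. Oasl1, a relative without the enzyme activity, was at -0.59 within number 1 and -0.01 within number 2. Oas2 differed by -0.19 and -0.16, and Oas3 by 0.27 and -0.20. The family as a whole had a median difference of -0.07.

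None of the GTPases that act on pathogen vacuoles passed the test. Iigp1 had an intensity of 5603 and 4925 in Nrp1-negative cells, against 3909 and 4183 in Nrp1-positive cells, and a difference of -0.38 (SE 0.17), with -0.52 within number 1 and -0.23 within number 2. Its other probe set gave -0.52 and -0.20, and both probe sets were lower in both numbers. Gbp2b, a guanylate-binding protein, was at 3470 and 3556 against 2767 and 2887, a difference of -0.31 (SE 0.15) that was nearly the same within number 1 (-0.32) and number 2 (-0.30). Gbp8 differed by -0.36 and -0.21, and Gbp3 by 0.32 and 0.19.

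The groups did not overlap in 3 members that were higher in Nrp1-positive cells (Irf5, Irgm2 and Oas1a), or 5.45% of those tested, where 12.0% of all genes were. They did not overlap in 6 that were lower (Gbp2b, Ifi204, Ifi47, Ifit1bl1, Ifit2 and Iigp1), or 10.9%, where 9.15% of all genes were. Over the 55 members, 21 were lower in both replicate numbers, 13 higher in both, and 21 (38.2%) had opposite signs in the numbers, against 46.1% of all genes. Ifitm2, Ifitm3 and Ifi30 were among those with opposite signs: 0.73 and -0.32 for Ifitm2, 0.32 and -0.21 for Ifitm3, 0.35 and -0.51 for Ifi30. The myeloid and dendritic cell markers had a median difference of 0.36 within number 1 and -0.18 within number 2, and their part in these values was not tested.

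**Figure D1:**
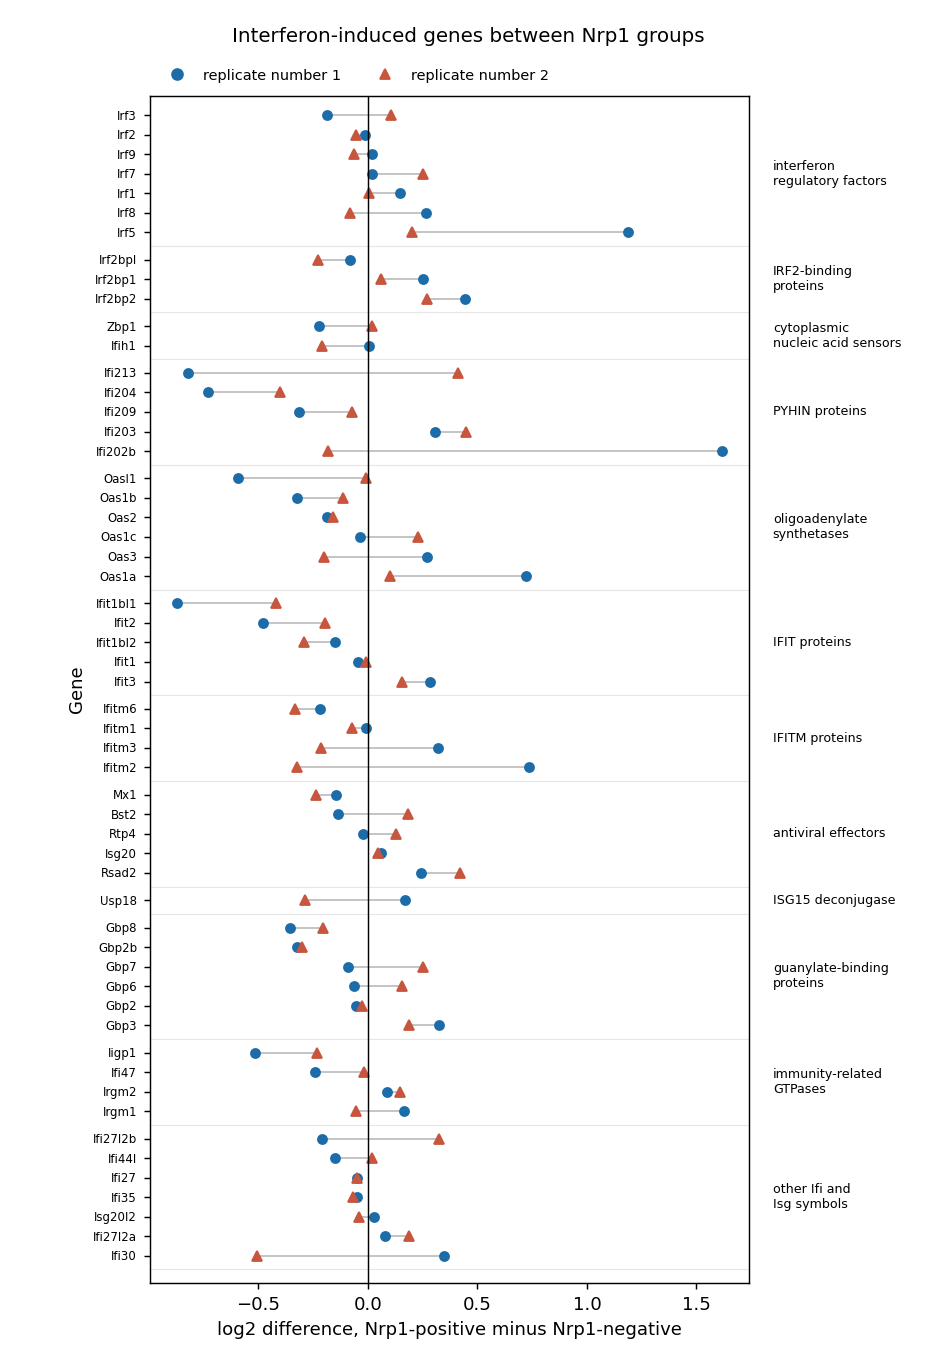
Log2 difference of Nrp1-positive minus Nrp1-negative for the 55 tested members, by family, with a circle for replicate number 1 and a triangle for number 2 (1 array against 1 array, so without an error). Most pairs lie near 0, and pairs that lie far apart include Ifi202b (1.61 and -0.18), Ifi213 (-0.82 and 0.41), Ifitm2 (0.73 and -0.32) and Irf5 (1.19 and 0.20).

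The second comparison set the number 2 arrays against those numbered 1, each pair holding both Nrp1 groups. Here 9 members were higher and 9 lower on the number 2 arrays, or 16.4% each of those tested, where 9.83% of all genes were higher and 9.41% lower (limma, adjusted p below 0.05). Of the 9 higher, Ifi202b passed the filter only through the number 2 arrays. With the Nrp1 group as a term, 12 members were higher and 11 lower, where 13.0% and 11.7% of all genes were. A 2-fold difference or more was found in 8 members (14.5%) and in 6.34% of all genes. These 8, and the 25 higher without overlap given below, include Ifi202b and Ifi27l2b. Both genes lay below the filter threshold on the number 1 arrays and entered the test only through the number 2 arrays, so they are no support for a difference. The median size of the log2 difference was 0.37 for the members and 0.28 for all genes, and the median signed difference was 0.10 and -0.01. The members thus did not move one way: 25 were higher without overlap (45.5%, where 31.3% of all genes were) and 17 lower without overlap (30.9%, where 32.0% were). Log2 differences below are number 2 minus number 1, on the scale of log2(intensity + 18.3), which understates folds of dim genes.

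**Figure D2:**
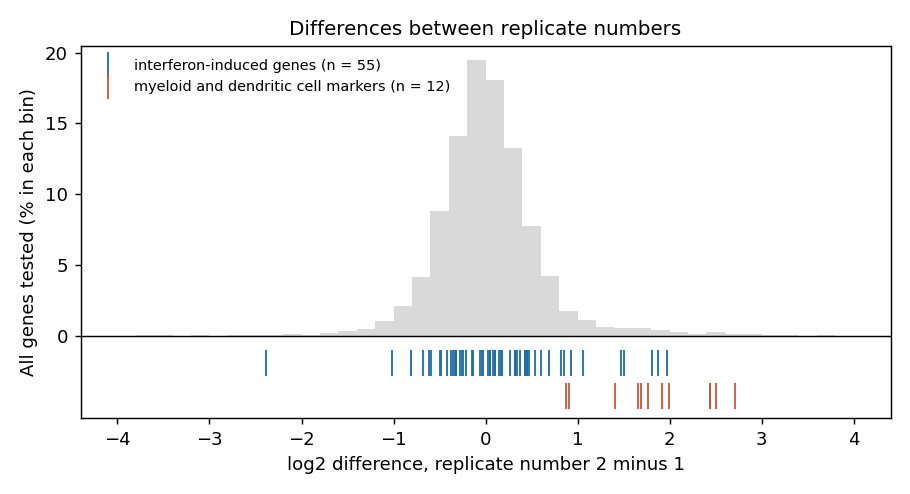
Distribution of the log2 difference of replicate number 2 minus 1 over the 10200 tested genes (bars, percent of genes in each bin), with a tick for each of the 55 tested members and each of the 12 tested myeloid and dendritic cell markers. The members lie on both sides of 0, from -2.39 to 1.97, and the markers all lie above 0.

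Membrane proteins of the IFITM family, which block the fusion of enveloped viruses, were called together. All 4 tested were higher on the number 2 arrays, where 9.83% of all genes were, with a median difference of 1.65. Ifitm1 had an intensity of 200 and 199 on Nrp1-negative and Nrp1-positive 1, and 855 and 811 on the number 2 arrays. The difference was 1.97 (SE 0.17), or 3.91-fold, with an adjusted p of 0.000589. Ifitm3 was at 754 and 947 on the number 1 arrays and at 2615 and 2252 on the number 2 arrays, a difference of 1.50 (SE 0.15, limma adjusted p = 0.000965). Ifitm6 was at 204 and 173 against 791 and 624, a difference of 1.81 (SE 0.20). The numbers did not overlap in any of the 4 tested genes. Ifitm2 was less regular, at 362 and 615 against 971 and 772: its difference of 0.85 (SE 0.25, limma adjusted p = 0.0486) was 1.38 within Nrp1-negative and 0.32 within Nrp1-positive cells. Ifitm5, whose product is known from bone, was below the filter at 7.55 and 10.3 against 71.1 and 58.6.

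Ifi30, a thiol reductase of antigen processing that is typical of antigen-presenting cells, was also higher on the number 2 arrays. It was at 347 and 446 against 1341 and 938, a difference of 1.47 (SE 0.21), or 2.77-fold. On the same arrays the summed intensity of the 13 myeloid and dendritic cell markers was 17990 and 22184 for number 1. It was 77221 and 71402 for number 2. On every array most of this sum came from S100a8, S100a9, Lyz1 and Lyz2. The median difference of the 12 tested was 1.84. Lyz2 (lysozyme) differed by 2.71, Tyrobp and Fcer1g (signalling adaptors of myeloid and NK cells) by 2.50 and 2.44, and S100a8 by 1.69. Xcr1 was below the filter, and no marker was at 0. Cd14, 1 of the 12, lay below the filter threshold on both number 1 arrays (12.5 and 45.8). Itgax (72.1 and 51.5) and Itgam (32.2 and 68.1) had a mean level below it there. These genes passed the filter only through the number 2 arrays, so they are no support for a difference. Of the other marker lists, 3 of 6 CD8 T and NK cell genes and 1 of 6 plasmacytoid dendritic cell genes were higher on the number 2 arrays. So were 0 of 3 B cell genes and 0 of 1 erythroid gene. Of 9 T cell genes Ctla4 was higher (0.55), while Cd4 (-1.57) and Cd3e (-0.51) were lower. Over all genes tested, 9.83% were higher and 9.41% lower. The part of these cell types in the values of Ifi30 and the IFITM genes was not tested.

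Bst2 (tetherin), which holds budding virions on the cell surface, had the largest difference of the tested members, in the other direction. Its intensity was 1097 and 995 on the Nrp1-negative and Nrp1-positive number 1 arrays, and 172 and 198 on the number 2 arrays. The difference was -2.39 (SE 0.17, limma adjusted p = 0.000352), so the number 1 arrays were 5.23-fold higher. Other antiviral effectors did not follow it. Rtp4, a chaperone-like protein induced by type I interferon, was higher on the number 2 arrays, at 1973 and 1944 on the number 1 arrays against 2719 and 2970, a difference of 0.53 (SE 0.11). Rsad2 (viperin) was at 213 and 256 against 333 and 452, a difference of 0.69 (SE 0.22) that passed only with the group term (limma adjusted p = 0.035). Mx1, a GTPase that traps viral nucleocapsids, was at 96.6 and 85.6 against 191 and 159 and did not pass (limma adjusted p = 0.0809). Isg20, an exonuclease, differed by 0.14, and Mx2 was below the filter at 13.0 and 25.5 against 75.5 and 149.

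Among oligoadenylate synthetases 1 of 6 tested passed, and it was higher on the number 2 arrays, where 9.83% of all genes were. Oas1b was at 312 and 246 on the number 1 arrays and at 568 and 524 on the number 2 arrays, a difference of 0.93 (SE 0.19, limma adjusted p = 0.0143). Oas3 differed by 0.60, Oas2 by 0.27 and Oas1a by 0.18, and none of these passed. None of the 5 IFIT genes passed, and they ran from -0.50 for Ifit1bl2 to 0.47 for Ifit3. Ifit1, the usual readout of a type I interferon response, was at 509 and 492 against 638 and 635, a difference of 0.34 (SE 0.15) without overlap of the numbers.

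Of 7 interferon regulatory factors 1 passed, and of 3 IRF2-binding proteins 1, both lower on the number 2 arrays. Of all genes tested, 9.41% were lower. Irf1 was at 7654 and 8467 on the number 1 arrays and at 6276 and 6301 on the number 2 arrays, a difference of -0.36 (SE 0.10, limma adjusted p = 0.0426). Irf2 differed by -0.33 and Irf9 by -0.32, and both passed only with the group term. Irf7 (-0.28), Irf3 (-0.14), Irf5 (-0.03) and Irf8 (0.38) did not pass. Irf2bp1, a corepressor that binds IRF2, was at 897 and 1072 against 465 and 485, a difference of -1.02 (SE 0.15), or 2.02-fold higher on the number 1 arrays. Its relative Irf2bp2 differed by 0.43 by its brightest probe set and passed only with the group term. The other probe sets of Irf2bp2 gave 0.60, -0.09 and -0.75. Usp18, the protease that removes ISG15 from proteins and dampens the type I receptor, was at 886 and 997 against 682 and 556, a difference of -0.60 (SE 0.16).

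Zbp1, a sensor of Z-form nucleic acid, was by its brightest probe set at 1709 and 1462 on the number 1 arrays and at 891 and 902 on the number 2 arrays, a difference of -0.81 (SE 0.13). Ifih1 (MDA5), a sensor of long double-stranded RNA, differed by 0.10. Of the 5 tested PYHIN genes only Ifi202b passed, and it was higher on the number 2 arrays, where 9.83% of all genes were. Its difference was 1.87 (SE 0.54, limma adjusted p = 0.0469), with 2.77 within Nrp1-negative and 0.97 within Nrp1-positive cells. Its intensity on both number 1 arrays, 8.66 and 64.3, lay below the filter threshold of 67.8, so it entered the test only through the number 2 arrays, where it was high, and its call is no support for a difference. Ifi203, at -0.68, did not pass (limma adjusted p = 0.115).

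Guanylate-binding proteins, large GTPases induced mainly by interferon-gamma, included 3 of 6 that were lower on the number 2 arrays. Of all genes tested, 9.41% were lower. Gbp3 was at 5567 and 6976 against 3796 and 4322, a difference of -0.62 (SE 0.13). Gbp7 differed by -0.42 and Gbp2 by -0.37, while Gbp8, at 0.45, passed only with the group term. The 4 immunity-related GTPases lay between -0.04 and 0.08 and none passed. The remaining called members were Ifi35, at -0.48 by its brightest probe set, and Ifi27, a mitochondrial protein, at 0.45. Ifi27l2b was at 62.6 and 51.7 on the number 1 arrays and at 122 and 158 on the others, a difference of 1.06 that did not pass (limma adjusted p = 0.06). Both number 1 values lay below the filter threshold of 67.8, so it too entered the test only through the number 2 arrays.

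**Figure D3:**
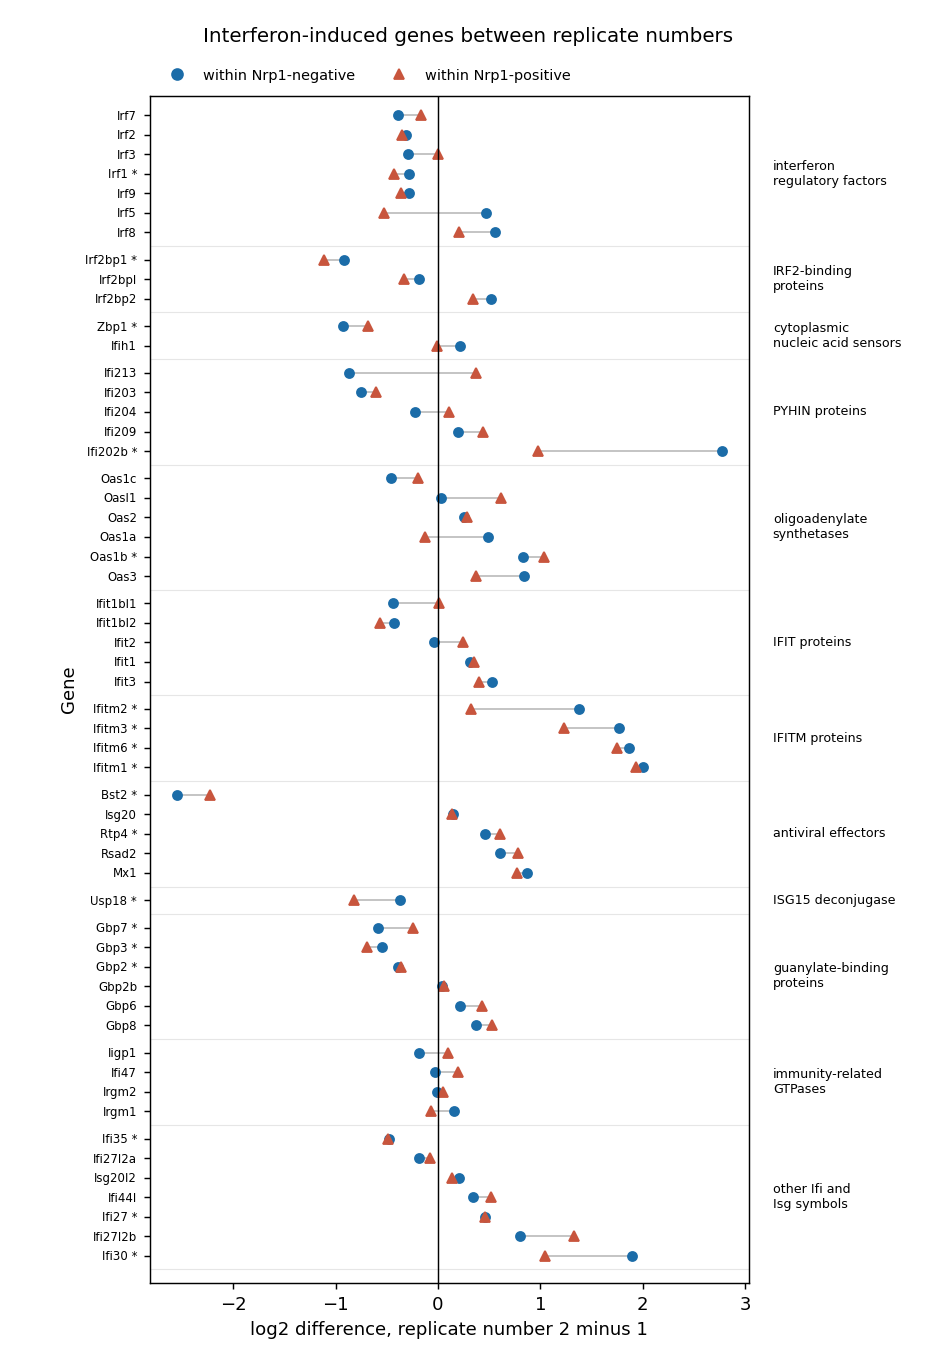
Log2 difference of replicate number 2 minus 1 for the 55 tested members, by family, with a circle for the 2 Nrp1-negative arrays and a triangle for the 2 Nrp1-positive arrays; an asterisk marks limma adjusted p below 0.05. The 4 IFITM genes lie above 0 in both groups, Bst2 lies at -2.55 and -2.23, and the 4 immunity-related GTPases stay near 0.

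**Figure D4:**
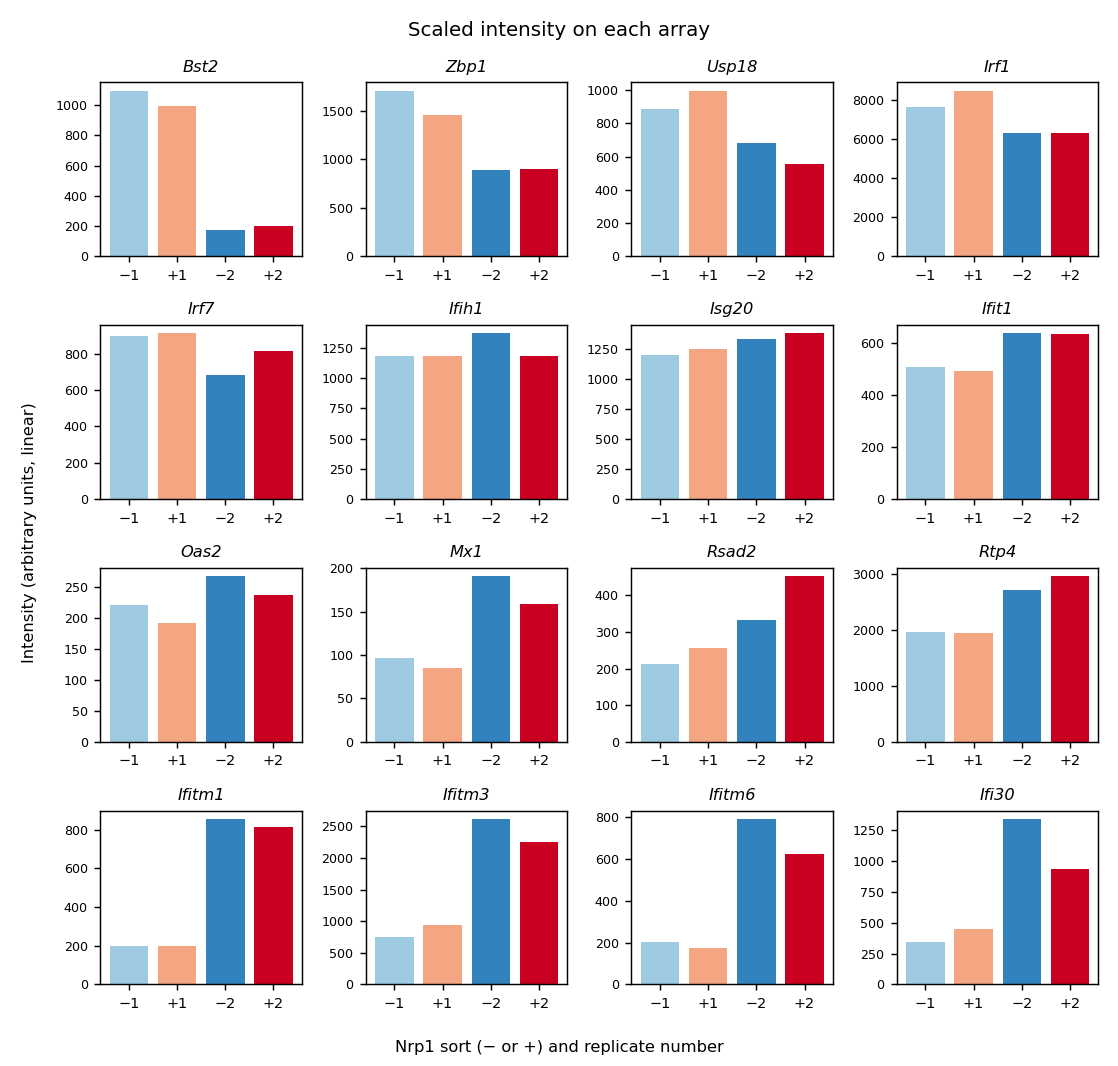
Scaled intensity (linear axis from 0, separate for each gene) of 16 members on each of the 4 arrays, labelled by Nrp1 sort and replicate number; each bar is 1 array. Bst2 stands at 1097 and 995 on the number 1 arrays and at 172 and 198 on the number 2 arrays, Ifitm1 at 200 and 199 against 855 and 811, and Isg20 differs by 0.14 on the log2 scale.

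How far these calls hold depended on the gene. The share of all called genes that held was not counted, so the members cannot be set against it. A number left with 1 array was taken to vary like the other. With any 1 array left out, 7 of the 18 calls held: Bst2, Irf2bp1, Zbp1, Ifi30, Ifitm1, Ifitm3 and Ifitm6. Without Nrp1-positive 2 the calls of Ifi35 and Rtp4 were lost, and without Nrp1-negative 2 that of Oas1b. Gbp3 was lost without Nrp1-negative 2 or Nrp1-positive 1, and Ifitm2 without either Nrp1-negative array. Usp18, Gbp7, Ifi27 and Ifi202b kept the call in 1 of the 4 fits, and Gbp2 and Irf1 in none. Without limma's mean-variance trend 7 members were higher and 3 lower, where 465 and 396 of all 10200 genes were. Without Nrp1-negative 1, the array with conflicting labels, the median difference over the tested members was 0.21. It was 0.072 without Nrp1-negative 2, 0.11 without Nrp1-positive 1 and 0.14 without Nrp1-positive 2.

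Probe sets of the same gene did not always give the same direction. Of 14 tested members with several passing probe sets, 7 had opposite signs among them between the replicate numbers. These were Gbp6, Ifi209, Ifi35, Irf2bp2, Irf2bpl, Irf3 and Zbp1. For Zbp1 the brightest gave -0.81 and the other 0.69, and their mean, -0.06, was not called (limma adjusted p = 0.785). For Ifi35 the brightest gave -0.48 and the others 0.19 and 0.23, with a mean of -0.02 that was not called (limma adjusted p = 0.909). Both probe sets of Irf8, a factor of myeloid and dendritic cells, were higher, at 0.38 and 1.01, and their mean of 0.70 was called. Both probe sets of Ifi27 (0.45 and 0.58) and of Gbp7 (-0.42 and -0.28) had the same sign, but the mean for Gbp7, -0.35, was not called (limma adjusted p = 0.0726), nor was that for Gbp2, -0.25 (limma adjusted p = 0.165). For genes with opposing probe sets, a direction belongs to the probe set and not to the gene. Probe sets whose names end in _s_at or _x_at may read more than 1 transcript, and they represent Gbp2, Ifi202b, Ifi27l2b, Ifi35, Irf2, Irf2bpl and Irf3.

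**Figure D5:**
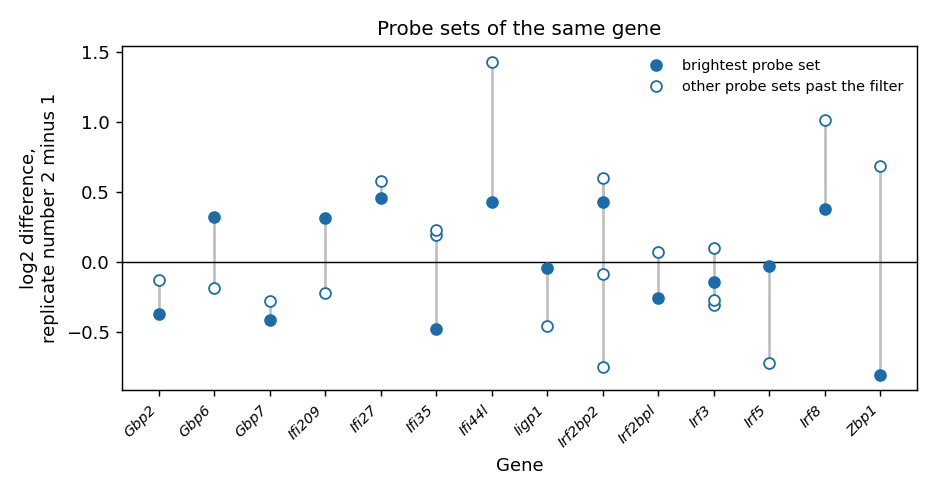
Log2 difference of replicate number 2 minus 1 for each passing probe set of the 14 members with several, with the brightest filled. Filled and open circles lie on opposite sides of 0 for Zbp1 (-0.81 and 0.69) and Ifi35 (-0.48 against 0.19 and 0.23), and on the same side for Irf8 (0.38 and 1.01).

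Promoter elements were found among genes of every outcome. The ISRE core was in 2 of 6 genes with a promoter that were higher on the number 2 arrays, in 4 of 7 that were lower and in 15 of 29 that were not called. The GAS letters were in 3, 5 and 6 of these genes. The 6 include Ifi202b, which holds GAS letters and whose call is no support for a difference. The 7 include Ifi35, which holds them too and was lower by its brightest probe set only. In Bst2 and in Gbp3, both lower, 2 overlapping cores follow each other within 16 bases, as the printed stretches show, and in Ifit1, not called, 2 separate cores lie between the flanks.

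Genes of the pathway outside the symbol rule were read from 4 lists, and none was called between the Nrp1 groups, with or without the block. Interferon genes themselves were at low intensity: Ifnb1 at 30.1 to 38.5 and below the filter, and Ifng at 140 to 219. Of 6 tested ligands and receptors, 2 were lower on the number 2 arrays, the receptor chains Ifnar1 (-0.59) and Ifngr2 (-1.35), and none was higher. Of 13 signal transduction genes, 3 were lower: the kinase Tyk2 (-0.49), the phosphatase Ptpn2 (-0.44) and the STAT inhibitor Pias1 (-0.43). Of 11 nucleic acid sensing genes, 1 was lower, Sting1 (-0.50), the adaptor for cytosolic DNA. Beside these counts, 9.41% of all genes tested were lower and 9.83% higher.

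Of 50 tested interferon-induced genes with other symbols, 6 were higher and 9 lower on the number 2 arrays. Among all genes tested, 9.83% were higher and 9.41% lower. The widest on the higher side were Plac8 (2.18), Eif2ak2 (PKR, a kinase activated by double-stranded RNA, 1.24) and Lgals9 (0.83). The widest on the lower side were Slfn5 (-2.71), the DNA sensor Aim2 (-2.49) and Shisa5 (-0.76). Tapbp and B2m, of the antigen presentation pathway, were lower, with -0.68 and -0.59. The median of this list was 0.02, against -0.01 for all genes. These genes too were thus called in both directions, with 0 of 50 called by Nrp1.

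The mean profile of the 55 members over the 4 arrays, centred gene by gene, was -0.08 and -0.07 on the number 1 arrays (Nrp1-negative first) and 0.09 and 0.07 on the number 2 arrays. The 10 other genes with the most similar profile were Akip1, Ankrd13a, Psmd8, Pla2g7, Prdx4, Aftph, Psmd12, Pdk3, Brd7 and Cks2. With only 4 arrays such likeness is common: 323 of 10145 genes had a Pearson correlation with the profile of at least 0.99.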

How the data were processed

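RNA of 4 samples of sorted mouse spleen cells had been extracted with Trizol, labelled with biotin and hybridised to 1-colour Affymetrix mouse arrays, per the labels' protocols. The authors deposited a linear intensity for each probe set, computed with MAS5 according to the submitters' processing notes, with neither version nor settings stated in the sources. The values show that each array had been scaled to a fixed trimmed mean (2% of probe sets left out at each end).

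Groups were taken from sample titles. All arrays were brought to a trimmed mean of 500 and read as log2(intensity + 18.3), with 0.25 of the mean array median as the pseudocount. The platform annotation gives 1 gene for 34945 of the 45101 probe sets, several for 932 and none for 9160, beside 64 controls, and 0 symbols changed through the RefSeq table. Another 10 probe sets with member symbols were shared with other genes and left out. Probe sets in the upper part by mean level, from percentile 50, passed (22519), and the brightest stood for its gene.

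Comparisons used limma 3.58.1 in R 4.3.3 (empirical Bayes with mean-variance trend, two-sided, Benjamini-Hochberg adjustment over all 10200 genes), checked on simulated data. Labels name no batch. The deviations of same-numbered arrays from their group means correlated at 0.73 over the genes, but there are only 2 pairs, so the replicate block was an alternative, as were quantile normalisation, filters, pseudocounts, probe set means and leaving out arrays. Most named members were those called in any of these block or group-term fits, the 8 widest differences either way, and well-known members fixed by name. Isg20 and Ifi213 were named outside these rules. So were some members given only as untested, as not overlapping, or for their probe sets. Members and lists were chosen with earlier results of these data known. Figures were drawn with matplotlib 3.10.9.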

Additional observations from a re-analysis of the deposited data

How the results depend on the processing

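Between the Nrp1 groups, the count of members called higher was 0 under every alternative run. The count called lower was 0 too, with the replicate block and without it, except 1 with the replicate block and quantile normalisation together. That fit called 62 of all 10200 genes lower. The median difference over the tested members, -0.03, was -0.022 with the mean of probe sets, -0.029 with no filter and -0.13 once the array with conflicting labels was moved to the Nrp1-positive group, and leaving out 1 array at a time gave -0.063 to 0.025. Between the replicate numbers, the main fit called 9 members higher and 9 lower, beside 1003 and 960 of all 10200 genes. The count called higher was 16 with the group term and quantile normalisation together, where 1598 of all 10200 genes were. The count called lower, 9, was 3 without the mean-variance trend, 5 with the mean of probe sets, 5 with no filter and 4 to 5 with 1 array left out. The median, 0.10, was 0.12 with quantile normalisation, with or without the group term, 0.049 with the mean of probe sets, 0.048 with the filter at percentile 70, and 0.072 to 0.21 with 1 array left out. No called member changed direction. The labels give shared numbers without saying what they share, and the replicate block changed no other call among the members. The cause of these shifts was not tested. With the smaller pseudocount of 4.58, 7 members were higher, beside 993 of all genes, as Ifi202b and Ifitm2 lost their calls. Mx1 gained a call without the mean-variance trend.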
